A study of Homo sapiens with 10 samples.

Results

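VTCN1 encodes B7-H4, a cell surface protein of the B7 family. With it stand 7 further genes of B7 ligands: CD274 (PD-L1), PDCD1LG2 (PD-L2), CD276 (B7-H3), CD80, CD86, ICOSLG and HHLA2. All 8 genes were found by symbol in the annotation of the authors' table, each with 1 probe set, out of 29403 genes with a symbol among the 48144 probe sets tested. VTCN1 was chosen by its measured change in the comparison described here, since it was among the 9 probe sets called there, so its values are given as a description with no test. The other 7 genes were listed as members of the same ligand family. All values come from UT-SCC-12a, a cell line long established from a human squamous cell carcinoma of the skin. The cells had been stably transduced with lentiviral shMIMIC particles, carrying either miR-23b-3p, a microRNA, or, in the control, a scrambled RNA. Both groups of cells thus carry a lentiviral construct, and no untransduced cells were analysed here. The labels do not say whether a stable line is 1 clone or a pool. Total RNA of 5 samples per group was read on Affymetrix human gene arrays (HuGene 2.0 ST).

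B7 ligands sit on antigen-presenting cells and on many carcinoma cells, where they bind receptors of T cells and natural killer cells. CD80 and CD86 bind CD28, which activates T cells, and CTLA4, which restrains them. PD-L1 and PD-L2 bind PD-1, an inhibitory receptor, and the ICOS ligand binds ICOS, an activating one. B7-H4 and B7-H3 are known mainly as inhibitors of T cells whose receptors are less settled, and HHLA2 has an activating and an inhibitory receptor. In the skin PD-L1 is best known as a gene that interferon gamma switches on in keratinocytes and in squamous carcinoma.

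The agent that separates the groups is a single short RNA, shown here beside its closest relative because its seed defines the messages that such an RNA can pair with. Both sequences are mature forms from RefSeq (GRCh38.p14), 5′ to 3′, with the seed, bases 2 to 8, in capitals.
hsa-miR-23b-3p: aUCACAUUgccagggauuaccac
hsa-miR-23a-3p: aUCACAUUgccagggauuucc
They lie at chr9:95085265-95085287 on the plus strand and chr19:13836595-13836615 on the minus strand. The 2 RNAs share their first 18 bases from the 5′ end, and 3 mature human microRNAs of the RefSeq table have this seed. Whether a B7 ligand message holds a site for the seed was not analysed here.

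The promoter windows of VTCN1 and CD274 are shown because VTCN1 is the gene chosen for its change and CD274 is the one whose control by interferon is best known. Each runs from 250 bases before the annotated start to 50 after it in RefSeq (GRCh38.p14), on the strand of the gene. Capitals mark matches to an AP-1 motif, TGANTCA, or to an IRF motif, GAAANNGAAA, on either strand.
VTCN1, chr1:117210878-117211177, minus strand: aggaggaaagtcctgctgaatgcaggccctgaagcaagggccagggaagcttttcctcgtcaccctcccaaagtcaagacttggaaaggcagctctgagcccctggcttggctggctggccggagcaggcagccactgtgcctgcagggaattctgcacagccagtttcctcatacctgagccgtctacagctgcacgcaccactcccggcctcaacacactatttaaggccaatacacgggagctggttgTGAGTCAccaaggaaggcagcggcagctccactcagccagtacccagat
CD274, chr9:5450292-5450591, plus strand: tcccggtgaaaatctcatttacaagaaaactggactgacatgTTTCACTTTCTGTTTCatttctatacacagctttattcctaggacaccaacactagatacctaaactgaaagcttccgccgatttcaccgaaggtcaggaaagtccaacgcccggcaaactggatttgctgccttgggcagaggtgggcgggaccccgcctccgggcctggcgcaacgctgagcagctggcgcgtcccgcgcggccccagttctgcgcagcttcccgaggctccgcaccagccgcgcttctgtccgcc
VTCN1 held 1 AP-1 match, at positions 2 to 8 counted from 1 at the annotated start, and no IRF match. CD274 held 2 overlapping IRF matches, at positions -208 to -199 and -202 to -193, and no AP-1 match. Of 34943 windows of this length, 7.72% held an AP-1 match and 3.57% an IRF match. A STAT motif, TTCNNNGAA, was found in 7.66% of windows and among these genes only in CD274, and TATAAA in 11.6% and in none of them. Windows were listed for 7 of the 8 genes, and among them HHLA2 also held an AP-1 match and, in another of its windows, an IRF match. An NF-kB motif, in 11.3% of windows, was matched by CD276 and CD86. These matches describe letters in a window, and nothing in the arrays measured binding there.

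The arrays were alike in overall level. The median log2 value of an array was 3.14 to 3.19, and the correlation across probe sets within a group was 0.991 to 0.994. The labels do not state that the samples within a group are separate cultures, so every p-value measures the spread between these samples, which may be technical. The poly-A spikes, RNAs added to follow the labelling reaction, averaged 5.35 on miR-23b arrays (SD 0.0931, n = 5) and 5.46 on control arrays (SD 0.0201, n = 5), and their part in any difference below was not tested beyond the fits that carry them as a covariate. Of the keratinocyte markers, KRT5 stood at a mean log2 value of 8.19, TP63 at 8.63, SFN at 10.6 and DSG3 at 9.85, while KRT14 and KRT6A stood at only 3.70 and 3.72. PTPRC, the CD45 antigen of all blood cells, stood at a mean of 2.11. The 23 antigenomic control probe sets ranged from 1.76 to 6.53, with a median of 2.29 to 2.44 by array. Level on an array is that of the whole culture, so fewer cells with a message and less message per cell cannot be told apart.

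VTCN1 was higher with miR-23b-3p on every array. Its probe set (16691459, 18 probes) spans the gene on chromosome 1, hg19 positions 117686209 to 117753582, on the minus strand. Log2 values on the 5 control arrays, in the order of their replicate numbers, were 5.39, 5.07, 5.08, 5.19 and 5.06. On the 5 miR-23b arrays they were 5.75, 6.19, 5.84, 5.75 and 5.87. The lowest miR-23b array lay 0.36 above the highest control array, so the groups did not overlap, with replicate 2 the highest of its group and control replicate 1 the highest control. Group means were 5.88 (SD 0.181, n = 5) and 5.16 (SD 0.14, n = 5), a log2 difference of 0.72 (SE 0.0969) or 1.65-fold. In the authors' deposited table VTCN1 has a fold of 1.654, there a ratio of means on the linear scale.

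By size of rise VTCN1 ranked 2 among probe sets with a gene symbol and 7 among all tested probe sets. Its place in that order is part of how the gene was chosen. With limma, 9 of 48144 probe sets (0.0187%) had an adjusted p under 0.05, 2 of them higher with miR-23b-3p, and no weight rests on VTCN1 being one. Groups did not overlap, by a gap of any width and in either direction, at 1.35% of all tested probe sets. With miR-23b-3p on the higher side this share was 0.685%. The difference ranged from 0.64 to 0.78 when any single array was left out. VTCN1 kept its place among the called probe sets in 2 of these 10 fits, those without control replicate 1 (0.78) or without miR-23b replicate 2 (0.64). It dropped out without any of control replicates 2 (0.70), 3 (0.70), 4 (0.73) and 5 (0.70) or miR-23b replicates 1 (0.75), 3 (0.73), 4 (0.75) and 5 (0.72). With the poly-A spike mean as a covariate the difference was 0.79 (SE 0.136), and VTCN1 was not among the 2 probe sets called.

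**Figure D1:**
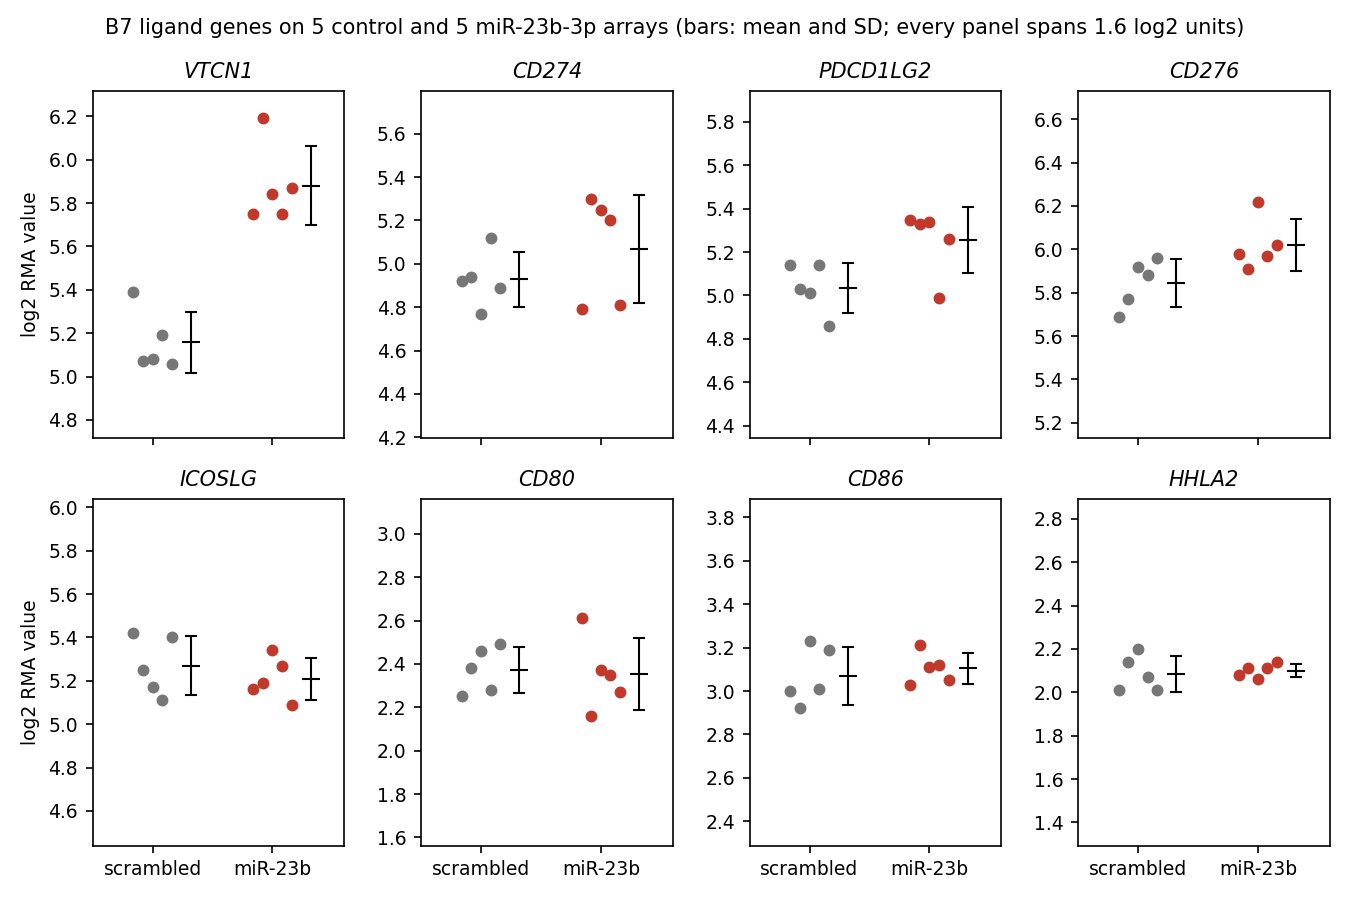
Log2 RMA values of the 8 B7 ligand genes on each array, with 5 control (grey, scrambled RNA) and 5 miR-23b-3p (red) arrays per panel in the order of replicate numbers, and the mean and SD beside them. In VTCN1 the 5 red points, from 5.75 to 6.19, lie above all grey ones, which end at 5.39, and in the other 7 panels the groups overlap.

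PDCD1LG2 and CD274, the PD-1 ligands, are neighbours on chromosome 9 and read in the same direction there, but neither passed the test. PDCD1LG2 (hg19 positions 5510545 to 5571282, plus strand) read 5.14, 5.03, 5.01, 5.14 and 4.86 on control arrays and 5.35, 5.33, 5.34, 4.99 and 5.26 on miR-23b arrays. Of the 5 miR-23b arrays 4 lay above every control, and replicate 4 lay below 4 of the controls. The means were 5.25 (SD 0.152, n = 5) and 5.04 (SD 0.115, n = 5), a log2 difference of 0.22 with a 95% interval from 0.03 to 0.40. Limma's adjusted p over all probe sets was 0.707 (unadjusted 0.0249). CD274 (positions 5450503 to 5470662, plus strand) read 4.92, 4.94, 4.77, 5.12 and 4.89 on control arrays and 4.79, 5.30, 5.25, 5.20 and 4.81 on miR-23b arrays. Here the miR-23b arrays fell apart, with replicates 2, 3 and 4 above every control and replicates 1 and 5 below 4 of the 5 controls. The log2 difference of CD274 was 0.14 (95% interval -0.10 to 0.39), limma adjusted p = 0.865. Without single arrays it ran from 0.084 to 0.212. With the poly-A spike mean as a covariate the difference was 0.018 for CD274 and 0.331 for PDCD1LG2.

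CD276, which encodes B7-H3, lies on chromosome 15 (hg19 positions 73976554 to 74006859, plus strand). It read 5.69, 5.77, 5.92, 5.88 and 5.96 on control arrays and 5.98, 5.91, 6.22, 5.97 and 6.02 on miR-23b arrays. Of the miR-23b arrays 4 lay above every control and the remaining one, replicate 2, lay between the third and the fourth control value. The means were 6.02 (SD 0.119, n = 5) and 5.84 (SD 0.111, n = 5), and the log2 difference was 0.18 (95% interval 0.01 to 0.34). Limma's adjusted p for CD276 was 0.745 (unadjusted 0.042), so it did not pass.

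ICOSLG, the ligand of ICOS, was read on chromosome 21 (hg19 positions 45642874 to 45660849, minus strand). Its control arrays read 5.42, 5.25, 5.17, 5.11 and 5.40 and its miR-23b arrays 5.16, 5.19, 5.34, 5.27 and 5.09. No miR-23b array lay above the highest control. The log2 difference was -0.06 (95% interval -0.23 to 0.11, limma adjusted p = 0.924), with group means of 5.21 (SD 0.0972, n = 5) and 5.27 (SD 0.137, n = 5).

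CD80, CD86 and HHLA2, all on chromosome 3, read low on every array. CD80, a ligand of CD28 and CTLA4, ranged from 2.25 to 2.49 (median 2.38) on control arrays and from 2.16 to 2.61 (median 2.35) on miR-23b arrays. Its companion CD86 ranged from 2.92 to 3.23 on control arrays and from 3.03 to 3.21 on miR-23b arrays. HHLA2 ranged from 2.01 to 2.20 and, with miR-23b-3p, from 2.06 to 2.14. On each array between 6.38% and 13.7% of the 3575 intron control probe sets lay below HHLA2, between 11.6% and 28.3% below CD80 and between 35.4% and 46.8% below CD86. The same share was 79.5% to 91.1% for VTCN1 and at least 76.7% for CD274, PDCD1LG2, CD276 and ICOSLG. Intron controls can hold transcribed sequence and probes differ in affinity, so these shares place a probe set against background and do not rank the genes. Log2 differences were -0.02 for CD80 (95% interval -0.21 to 0.17), 0.03 for CD86 (-0.13 to 0.20) and 0.01 for HHLA2 (-0.12 to 0.14), with limma adjusted p of 0.982, 0.96 and 0.981. At such readings a change in a rare message could go unseen.

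Of the 7 genes other than VTCN1, 5 were higher and 2 lower with miR-23b-3p, where 50.8% of all tested probe sets were higher. Their median log2 difference was 0.034 against 0.002 over all tested probe sets. With limma 0 of the 7 passed an adjusted p of 0.05, where 0.0187% of all probe sets did, and 2, PDCD1LG2 and CD276, had an unadjusted p under 0.05, as did 6.63% of all probe sets. A test with the own variance of each group, and the p- and q-values of the authors' deposited table, likewise gave 2 before and 0 after adjustment. In the authors' deposited table the folds are 1.165 for PDCD1LG2, 1.13 for CD276, 1.113 for CD274 and -1.044 for ICOSLG, where a minus sign marks a lower value with miR-23b-3p.

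**Figure D2:**
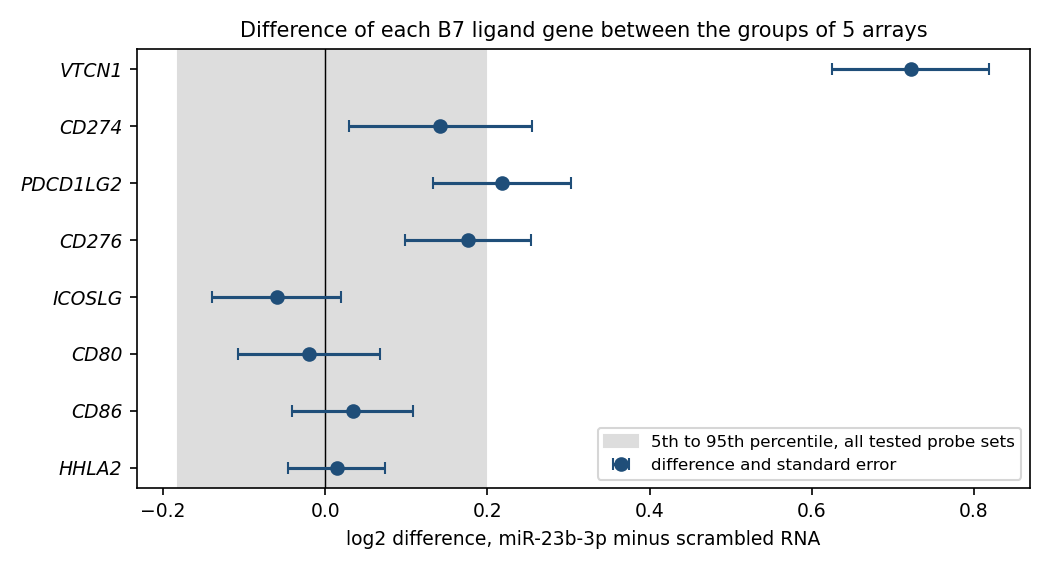
Log2 difference of each B7 ligand gene, miR-23b-3p minus scrambled RNA, with limma's standard error as bars, over 5 and 5 arrays. VTCN1 stands at 0.72, while the other 7 lie between -0.06 and 0.22, all but PDCD1LG2 inside the grey band from -0.182 to 0.198 that holds the 5th to 95th percentile of all tested probe sets.

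At every gene beside VTCN1 on chromosome 1 the groups overlapped, where 1.35% of all tested probe sets did not overlap. The 9 probe sets with a symbol within 250 kb belong to 8 genes, and their log2 differences ran from -0.05 to 0.16. TRIM45, a ubiquitin ligase gene and the nearest at 21.0 kb, stood at 0.004 (SE 0.0731), and TTF2, a transcription termination factor gene, at 0.062 and 0.060 in its 2 probe sets. PTGFRN stood at 0.04, CD101 at -0.054, CD101-AS1 at 0.012, MIR942 at 0.048 and the mannosidase gene MAN1A2, on the other side, at 0.06. LINC01525, a noncoding RNA gene 84.6 kb away with a mean log2 value of 2.25, had the highest difference at 0.164 (SE 0.0849). With the poly-A spike mean as a covariate the 9 ran from -0.089, at CD101, to 0.256, at CD101-AS1, where VTCN1 stood at 0.79.

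Around the PD-1 ligand pair, whose probe sets lie 39.9 kb apart, the groups overlapped at every neighbour, as at the pair itself. PLGRKT, on the CD274 side, stood at -0.094 (SE 0.0774) and RIC1, on the PDCD1LG2 side, at -0.002 (SE 0.0693). Farther out, RLN1, a relaxin gene, stood at 0.226 (SE 0.0994, limma unadjusted p = 0.0417, adjusted p = 0.745) at a mean log2 value of 2.94, as far up as PDCD1LG2 itself, its close paralog RLN2 at 0.036 in both of its probe sets, INSL4 at -0.064 and ERMP1 at 0.108. Around CD276 the 9 neighbouring probe sets ran from -0.124, at REC114, to 0.13, at LOC105370892. The nearest were INSYN1 at -0.028 and LOC105370891 at -0.056, followed by INSYN1-AS1 at 0.096 and NPTN at -0.084. TBC1D21 stood at -0.026, LOXL1-AS1 at 0.056 and LOXL1 at -0.032. Here too the groups overlapped at every neighbour, where 1.35% of all tested probe sets did not overlap.

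**Figure D3:**
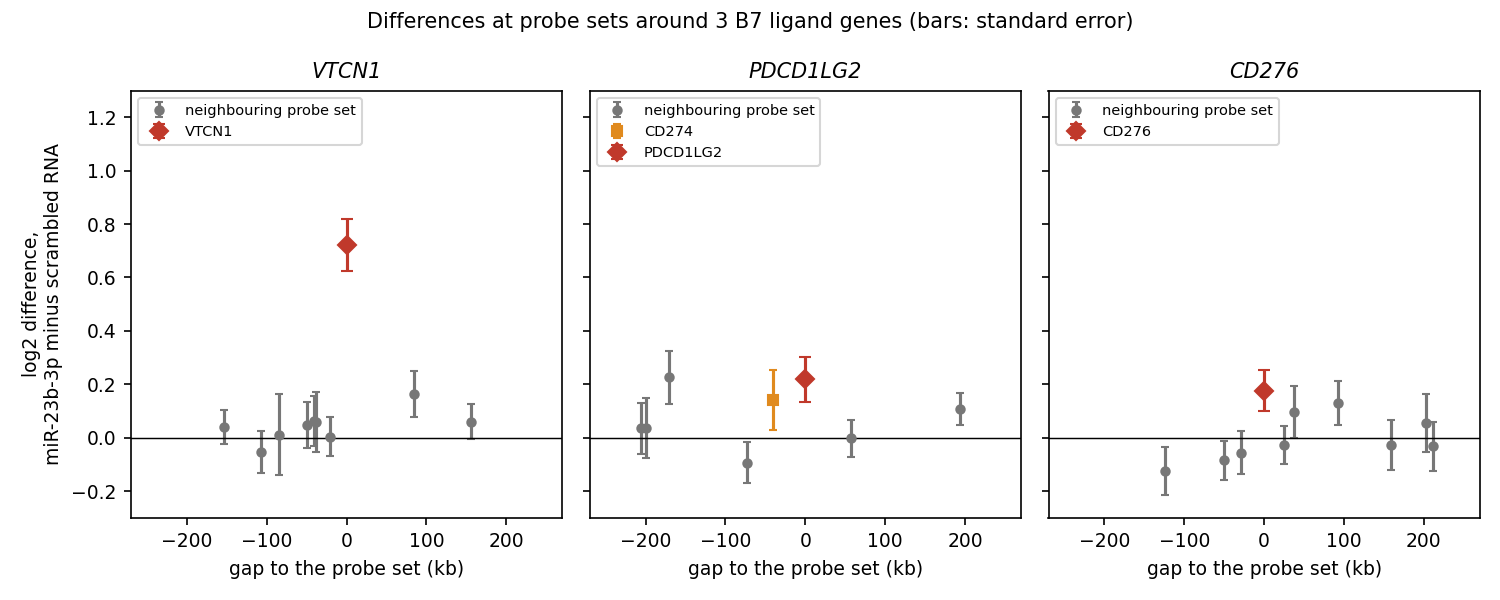
Log2 difference with standard error at each probe set with a symbol, against its gap in kb to the probe set of VTCN1, PDCD1LG2 or CD276, which sits at 0 in its panel. Beside VTCN1 at 0.72 the 9 neighbours lie between -0.05 and 0.16, and beside PDCD1LG2 the orange square is CD274 at 0.14.

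Most receptors that B7 ligands bind belong to lymphocytes, and 6 of the 8 measured stood at a mean log2 value under 4. The exceptions were PDCD1, the PD-1 gene, at 4.58 and RGMB, at 5.33, a co-receptor for bone morphogenetic proteins that also binds PD-L2 and is not particular to lymphocytes. With limma 0 of the 8 receptor genes passed in either direction, and 0 had an unadjusted p under 0.05. Over all tested probe sets these shares were 0.0187% and 6.63%, so counts of 0 among 8 genes say little. CD28 differed by 0.15 (SE 0.0896), NCR3, an activating receptor of natural killer cells, by 0.074 (SE 0.0915; its probe set is of cross-hybridization type 3) and CTLA4 by -0.074 (SE 0.109). The median over the receptors was 0.029.

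Further relatives of the B7 family were measured with 16 genes. Of these, butyrophilins included, 6 were higher and 10 lower, with a median log2 difference of -0.057 against 0.002 over all tested probe sets. With limma 0 passed and 0 had an unadjusted p under 0.05, beside 0.0187% and 6.63% of all probe sets. VSIR, which encodes the checkpoint protein VISTA, read 0.18 higher (SE 0.12, adjusted p = 0.839), from 0.106 without control replicate 2 to 0.274 without control replicate 1, and 0.305 with the poly-A spike mean as a covariate. BTNL2, a butyrophilin-like gene, stood at 0.12 (SE 0.0789) and at 0.025 with that covariate. BTN3A2, a butyrophilin that takes part in sensing by gamma delta T cells, stood at -0.16 (SE 0.126) and at 0.076 with it.

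The list of checkpoint ligands of other families had 22 genes, among them the enzymes NT5E, IDO1 and ENTPD1. Groups did not overlap for 2 of the 22, CD24 and NT5E, both on the higher side. Over all tested probe sets the share on the higher side was 0.685%. CD24, whose product binds the macrophage receptor Siglec-10, had a mean of 10.6 (SD 0.0809, n = 5) with miR-23b-3p and 10.4 (SD 0.0449, n = 5) in controls, a log2 difference of 0.26 (SE 0.0607, limma adjusted p = 0.344). NT5E, the ectonucleotidase CD73 that makes adenosine, stood at 6.78 (SD 0.0828, n = 5) against 6.52 (SD 0.0823, n = 5), also 0.26 apart (SE 0.0659, adjusted p = 0.424), and 0.16 apart with the poly-A spike mean as a covariate. CEACAM1, an adhesion protein that restrains T cells, stood at -0.18 (SE 0.0787, adjusted p = 0.747). With limma 0 of the 22 passed and 3 had an unadjusted p under 0.05, beside 0.0187% and 6.63% of all probe sets. The median was -0.024, with 9 higher and 12 lower. The CD24 probe set is placed on chromosome Y in hg19 by the authors' table, where a near-identical copy of the gene lies, so its reading may join several copies. CD24 alone passed under 1 alternative, an intensity trend in the variance, at an adjusted p of 0.0192.

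The list of TNF family ligands that act on T cells also held CD40, a receptor, at 0.14. Of its 9 genes 6 were higher, CD40 among them, with a median of 0.102. Over all tested probe sets 50.8% were higher and the median was 0.002. With limma 0 of the 9 passed and 1 had an unadjusted p under 0.05, beside 0.0187% and 6.63% of all probe sets. That gene was TNFSF15, which encodes the ligand TL1A, at 6.19 (SD 0.0589, n = 5) against 5.95 (SD 0.147, n = 5), a difference of 0.25 (SE 0.0763, limma adjusted p = 0.594). CD70, the ligand of CD27, stood at -0.15 (SE 0.0777) and TNFSF18, the ligand of GITR, at 0.17 (SE 0.117), both at mean log2 values under 4.

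Along the interferon gamma route and among regulators of PD-L1, 22 of 32 genes were higher and 10 lower, with a median of 0.026. Over all tested probe sets 50.8% were higher and the median was 0.002. With limma 0 of the 32 passed, where 0.0187% of all probe sets did. At an unadjusted p under 0.05 there were 3 of 32, beside 6.63% of all probe sets. B3GNT3, a glycosyltransferase reported to modify PD-L1, stood at 8.10 (SD 0.0753, n = 5) against 7.84 (SD 0.0764, n = 5), a difference of 0.26 (SE 0.0638, limma adjusted p = 0.424). SPOP, the adaptor of a ubiquitin ligase that marks PD-L1 for breakdown, stood at 0.22 (SE 0.0757, adjusted p = 0.657). IFNGR1, the ligand-binding chain of the interferon gamma receptor, read 6.82 (SD 0.1, n = 5) against 7.01 (SD 0.0991, n = 5), a difference of -0.18 (SE 0.0718, limma adjusted p = 0.71). Groups did not overlap for B3GNT3 and for IFNGR1, 2 of 32 genes, beside 1.35% of all probe sets.

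Among 13 genes reported to bear on VTCN1, most of them epithelial transcription factors, 6 were higher and 7 lower with a median of -0.014. With limma 0 passed and 3 had an unadjusted p under 0.05, beside 0.0187% and 6.63% of all probe sets. These were GATA3 at 0.26 (SE 0.077), the epithelial factor GRHL2 at 0.20 (SE 0.0684) and the ETS factor ELF3 at 0.17 (SE 0.0605), with adjusted p of 0.544, 0.652 and 0.665. GATA3 read 6.65 (SD 0.115, n = 5) with miR-23b-3p and 6.39 (SD 0.112, n = 5) in controls, and its groups, like those of ELF3, did not overlap, which makes 2 of 13 genes, both higher, beside 0.685% of all probe sets. Over all 6 lists, 100 genes in all, 54 were higher, 45 lower and 1 at 0, with a median of 0.013 against 0.002 over all tested probe sets. Groups did not overlap for 6 of these 100 genes, 5 of them higher, where 1.35% of all probe sets did not overlap. The lists were written with earlier results of these data known, and 17009 of the tested probe sets have no symbol. No enrichment is therefore read from this count.

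**Figure D4:**
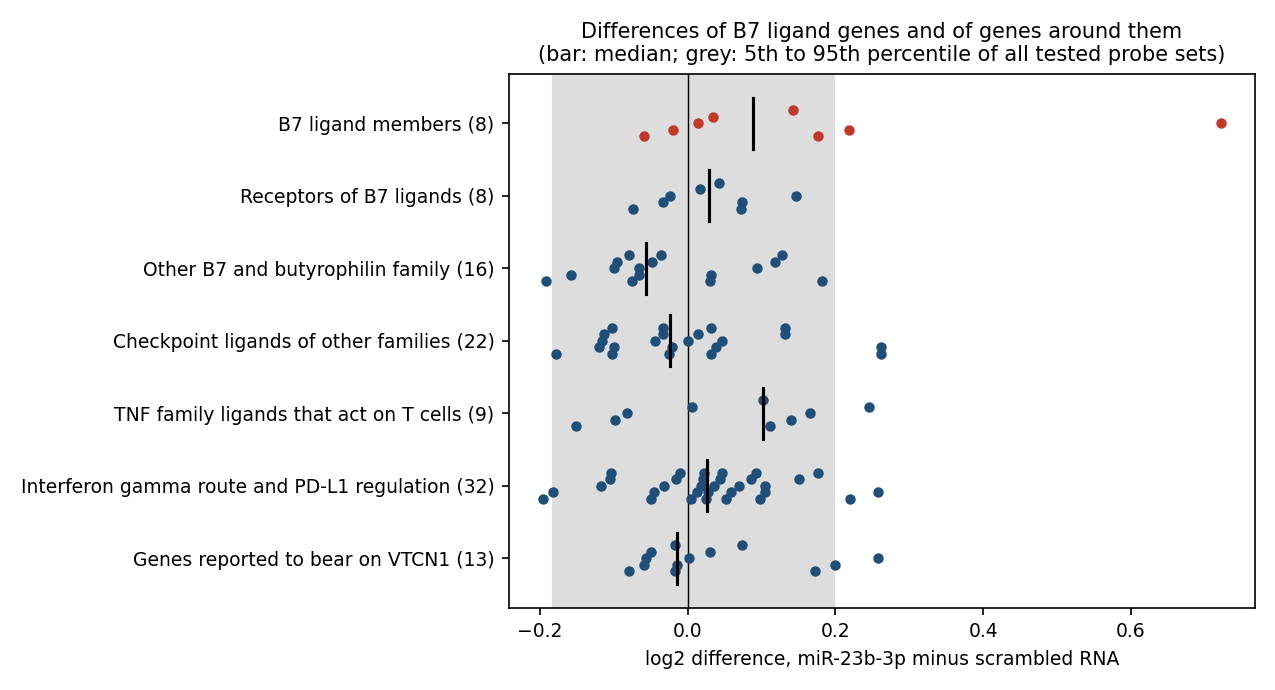
Log2 differences, miR-23b-3p minus scrambled RNA, of the 8 B7 ligand genes (red) and of 100 genes in 6 lists around them (blue, number of genes in brackets), with the median of each list as a bar and the 5th to 95th percentile of all tested probe sets in grey. VTCN1 at 0.72 is the point farthest right, and the 100 listed genes lie between -0.196 and 0.262.

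Markers of cells that could bring B7 ligands into a culture were read beside the ligands. The 8 markers of antigen-presenting cells averaged 3.32 to 3.53 on miR-23b arrays and 3.32 to 3.46 on control arrays, 4 of 8 higher and 0 past the threshold with limma. Of these, CD14 (3.10), CD163 (2.27), CD1C (3.06), ITGAX (3.06), FLT3 (2.96) and LYZ (2.51) read low. CSF1R read 4.55, and CD83 at 5.60 was the brightest. The 3 B cell markers averaged 2.99 to 3.15 and 3.003 to 3.20, and the 5 T and natural killer cell markers 3.25 to 3.35 and 3.12 to 3.30, all 5 higher with miR-23b-3p by 0.014 to 0.174. Fibroblast markers averaged 2.92 to 3.07 and 2.90 to 2.99 (5 of 6 higher). Melanocyte markers averaged 2.66 to 2.97 and 2.63 to 2.93 (1 of 3 higher). Endothelial markers averaged 4.04 to 4.22 and 3.94 to 4.03 (3 of 3 higher). Their mean on every miR-23b array lay above every control array, at the nearest 4.04 against 4.027, while the groups overlapped at each single endothelial marker. Of all tested single probe sets 0.685% lay apart on the higher side. The 6 keratinocyte markers averaged 7.30 to 7.45 on miR-23b arrays and 7.42 to 7.51 on control arrays, 1 of 6 higher. Over all tested probe sets 50.8% were higher. With limma 0 markers of any of these lists passed, where 0.0187% of all probe sets did. CDH5, of endothelium, at 0.212 (limma unadjusted p = 0.0369) and KRT6A at -0.208 (limma unadjusted p = 0.0448) were under 0.05 before adjustment, as were 6.63% of all probe sets. The part of any of these markers in the VTCN1 reading was not tested.

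Genes that varied with VTCN1 from array to array were sought on deviations from the group means, so that the difference between the groups does not enter. Over 10 arrays and 10085 probe sets with a symbol and a mean log2 value of at least 5, the nearest was KLHL8, at a Pearson correlation of 0.956. CAD followed at 0.933, SNX11 at 0.922, PAFAH2 at 0.919 and SSH3 at 0.913. The most opposed were ABCD3 at -0.881, IFITM3 at -0.877 and MROH1 at -0.868. Between the groups KLHL8 was lower with miR-23b-3p, at a log2 difference of -0.262 (SE 0.0744), where VTCN1 was higher. CAD stood at -0.084, PAFAH2 at -0.018, SNX11 at 0.192 and SSH3 at 0.046. Of the opposed genes ABCD3 stood at 0.004, IFITM3 at 0.02 and MROH1 at 0.064. Without miR-23b replicate 2, where VTCN1 read highest, the correlation was 0.956 for KLHL8 and 0.789 for SSH3, and it was -0.849 for ABCD3 and -0.675 for MROH1. The genes named are the extremes picked from 10085 probe sets, and their correlations were not compared with chance. Arrays share their hybridization and normalization, so these values describe 10 arrays only. Among the B7 ligands the same measure was 0.51 for PDCD1LG2, 0.412 for CD274, 0.097 for ICOSLG, 0.083 for CD86, -0.23 for HHLA2, -0.508 for CD276 and -0.792 for CD80. Without miR-23b replicate 2 it was 0.536 for PDCD1LG2, 0.11 for CD274, 0.226 for ICOSLG, -0.356 for CD86, -0.426 for HHLA2, -0.367 for CD276 and -0.693 for CD80. The B7 ligands were not held to the level of 5 asked of the other probe sets. CD274 stood just under it at 4.999, and CD80, CD86 and HHLA2 far under it at 2.36, 3.09 and 2.09. Background limits the readings of CD80, CD86 and HHLA2, so little can be read from their correlations, that of CD80 included.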

How the data were processed

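RNA from UT-SCC-12a cells was hybridized to 10 arrays, 5 per group, grouped by sample title. Values analysed are log2 expression, deposited to 2 decimals. RMA is named in the submitters' processing notes, with Transcriptome Analysis Console. Expression Console with RMA background, quantile normalization and median polish is named per the file headers of the authors' table. The signed fold column of the authors' table is handled as a score, because folds under 1 are written there as negatives. It matched a linear ratio of miR-23b over control at all 53617 probe sets (relative tolerance 0.001), and the inverse ratio at 328. The p-values and q-values deposited beside it belong to a Student's test, per the file headers. That table's 10 per-array columns match no sample label and were not used.

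The 48144 probe sets of the main and rescue categories were tested, leaving aside 5473 others. Annotation is NetAffx build 36, hg19, per the file headers. Symbols of 29774 probe sets were updated by Entrez identifier through RefSeq (GRCh38.p14), and 1361 kept the file's symbol. Limma 3.58.1 in R 4.3.3 (lmFit, eBayes) estimated miR-23b-3p minus control with no covariate, and p-values were adjusted by Benjamini and Hochberg's method across every tested probe set. The fit was tested on simulated data. Any 2 arrays shared at most 2.26% of identical values.

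Named are the 8 genes, the 3 genes of each list with the smallest p, probe sets with a symbol within 250 kb of VTCN1, CD274, PDCD1LG2 or CD276, and the 5 most and 3 least like VTCN1, with marker genes. The members and lists were chosen with earlier results of these data known. Alternatives were a replicate block, an intensity trend or robust variance prior, own variances, leaving out the dimmest 25%, median centring, renewed quantile normalization, array weights, the poly-A spike covariate, cross-hybridization type 1 only and leaving out each array.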

Additional observations from a re-analysis of the deposited data

Results flagged for a closer look

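Single arrays stood apart from the other 4 of their group in 12 of 118 groups examined, over 59 probe sets, by Dixon's test at its 95% critical value, which chance alone passes in about 1 group of 20. The probe sets include genes chosen for following VTCN1 over these arrays and list genes chosen by smallest p, so the number of such arrays is partly set by that choice and is not compared with chance. VTCN1 on miR-23b replicate 2 read 6.19, above the 5.75 to 5.87 of the other 4. PDCD1LG2 on miR-23b replicate 4 read 4.99, below the 5.26 to 5.35 of the other 4. Among genes of the lists, CTLA4 read 2.60 on miR-23b replicate 4 and 2.71 on control replicate 5, BTNL2 3.60 and TNFSF15 6.20 on control replicate 5, CD24 10.76 on miR-23b replicate 5, and SPOP 6.45, the low value of its group, on miR-23b replicate 3. NPTN, beside CD276, read 8.98 on miR-23b replicate 3. Of the genes chosen for following VTCN1, SNX11 read 6.10 and PAFAH2 6.18 on control replicate 1, and SSH3 read 7.29 on miR-23b replicate 2.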

How the results depend on the processing

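The log2 difference of VTCN1 moved by less than the spread between replicates in 20 of 20 alternatives, from 0.64 to 0.78 without single arrays and from 0.71 to 0.79 otherwise. The count of all called probe sets, 9 in the fit reported, was 26 with an intensity trend, 3 with own variances in each group, 2 with the poly-A spike covariate, 1 with the replicate block and 5 to 8 without single arrays, and the cause was not tested. The block left the VTCN1 difference at 0.72, and VTCN1 was among the called probe sets in 9 of the 20 alternatives, not with the block, own variances or the spike covariate, nor in 8 of the 10 fits without 1 array. Same-numbered arrays did not vary together (correlation of deviations from -0.101 to 0.043), and 1 of 10 arrays correlated best with its own number. Members other than VTCN1 gave 0 calls in each alternative, with a lowest adjusted p of 0.536, and the 100 listed genes gave 0, except 1, CD24, with the trend. Signs turned for BTN3A2 with the spike covariate (from -0.158 to 0.076), and from values near 0 for HHLA2 (-0.002), TRIM45 (-0.012), CD101-AS1 (-0.004) and ABCD3 (-0.012) with median centring and without single arrays for HHLA2 (-0.005 to 0.043), CD86 (-0.004 to 0.074), CD80 (-0.084 to 0.028) and CTLA4 (-0.152 to 0.013). Other neighbours and genes like VTCN1 with values near 0, for which no test is given, turned sign in further fits. With the spike covariate ICOSLG stood at -0.135, CD80 at -0.055, CTLA4 at -0.227, NCR3 at 0.138 and TNFSF18 at 0.072. Of the neighbours of VTCN1, CD101-AS1 stood at 0.256, TTF2 at 0.182 and 0.17, MIR942 at 0.172, PTGFRN at 0.112 and LINC01525 at 0.059 in that fit, and near CD274 PLGRKT stood at 0.027 and RLN2 at 0.175 and -0.17. HHLA2 and CD80 fell under the filter on dim probe sets and have no value there. Background limits CD80, CD86 and HHLA2.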
